A study of Arabidopsis thaliana with 39 samples.

Results

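The clade A protein phosphatases of type 2C (PP2Cs) of Arabidopsis thaliana are a family of 9 genes, ABI1 (AT4G26080), ABI2 (AT5G57050), HAB1 (AT1G72770), HAB2 (AT1G17550), AHG1 (AT5G51760), AHG3 (AT3G11410, also called PP2CA), HAI1 (AT5G59220), HAI2 (AT1G07430) and HAI3 (AT2G29380). The rule for membership was the family and the locus identifier, though the family was picked with earlier results of these data known, and the members are 9 of the 32678 genes in the deposited files. All 9 were found there, and 8 passed the expression filter and were tested. AHG1, at 0 to 7 reads in every library, did not.

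The study sequenced poly(A) RNA of seedlings labelled 5 days old, grown on solid medium, with 3 libraries in each of 12 groups. The genotypes comprised wild type (WT), the mutant glyI2, and the lines #1 and #5 labelled 35S::GLYI2 35S::GLYII4, called OE1 and OE5 here. GLYI2 and GLYII4 encode glyoxalases, enzymes that detoxify methylglyoxal (MG), a reactive by-product of sugar metabolism, and 35S is a viral promoter active in most plant cells. Seedlings were mock-treated or exposed for 12 h either to NaCl at 100 mM or to MG at 200 µM. The labels do not say how the glyI2 mutant was made, nor that libraries of a group came from separate cultures. Chromatin samples of the same series were not analysed here.

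Abscisic acid (ABA) is the hormone through which plants respond to drought and salt. Without it, clade A PP2Cs dephosphorylate and hold inactive certain protein kinases of the SnRK2 family. When ABA is bound, receptors of the PYR/PYL family dock onto the phosphatases and block them, and the released kinases activate transcription factors of the ABF group. Several clade A genes are themselves targets of those factors, so that the pathway makes more of its own inhibitor, and the HAI genes were named for being highly ABA-induced.

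Library totals lay between 21024878 and 22383131 counts. Expression of GLYI2 was 51.1 ± 9.44 FPKM (mean ± SD, n = 3 throughout) in WT mock, where FPKM are the authors' fragment counts scaled by gene length and library size, and was 6.39 ± 1.29 in glyI2 mock. In edgeR's test it fell in glyI2 under all 3 treatments (adjusted p from 9.98e-10 to 4.1e-09). The libraries labelled OE1 and OE5 went against a piece of their label. GLYI2 stood at 21.5 ± 9.23 and 42.0 ± 8.53 FPKM in their mock groups, no higher than in WT, and it was called lower in OE1 in mock and under MG (adjusted p = 0.0358 and 0.0234). GLYII4 was called higher in both lines under all 3 treatments, at 16.4 ± 5.53 and 18.3 ± 4.38 FPKM in mock against 6.26 ± 1.22 in WT, so directions for OE1 and OE5 are those of the libraries labelled so. A set of 7 libraries, all with replicate number 3 (WT NaCl and the mock and NaCl groups of glyI2, OE1 and OE5), stood apart. In log2 CPM (counts scaled to library size), CCA1, a morning-phased clock gene, lay between -1.9 and 1.08 in these 7, against 4.24 to 6.31 in the other 29. Leaf markers were abundant in every library, at a summed 27375 to 62017 FPKM over 5 genes. Root markers summed to 46.4 to 125 FPKM in mock, 30.7 to 54.8 under NaCl and 7.50 to 18.1 under MG. In RNA from whole seedlings, fewer cells of a type and less RNA per cell cannot be told apart.

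In mock seedlings the family was carried by ABI1 and AHG3, and the HAI genes were nearly silent. FPKM are per length, so levels can be compared between genes. ABI1, which with ABI2 was found through dominant ABA-insensitive mutants, lay between 14.7 and 22.5 FPKM in the 12 mock libraries, with a median of 18.4. AHG3, a regulator of germination that also acts on guard cell ion channels, lay between 8.0 and 19.3, with a median of 14.3. HAB1 and HAB2, close relatives of ABI1 whose loss makes plants hypersensitive to ABA, had medians of 7.90 and 6.15 FPKM, and ABI2 had 2.19. HAI1 had a median of 1.25 FPKM, HAI2 one of 0.0995 and HAI3 one of 0.071. ABI1 was the highest of the 9 in 10 of the 12 mock libraries and AHG3 in the other 2. AHG1, a phosphatase known from seeds that resists the receptors, was listed at 0 in 3 mock libraries and reached 0.091 FPKM at most.

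**Figure D1:**
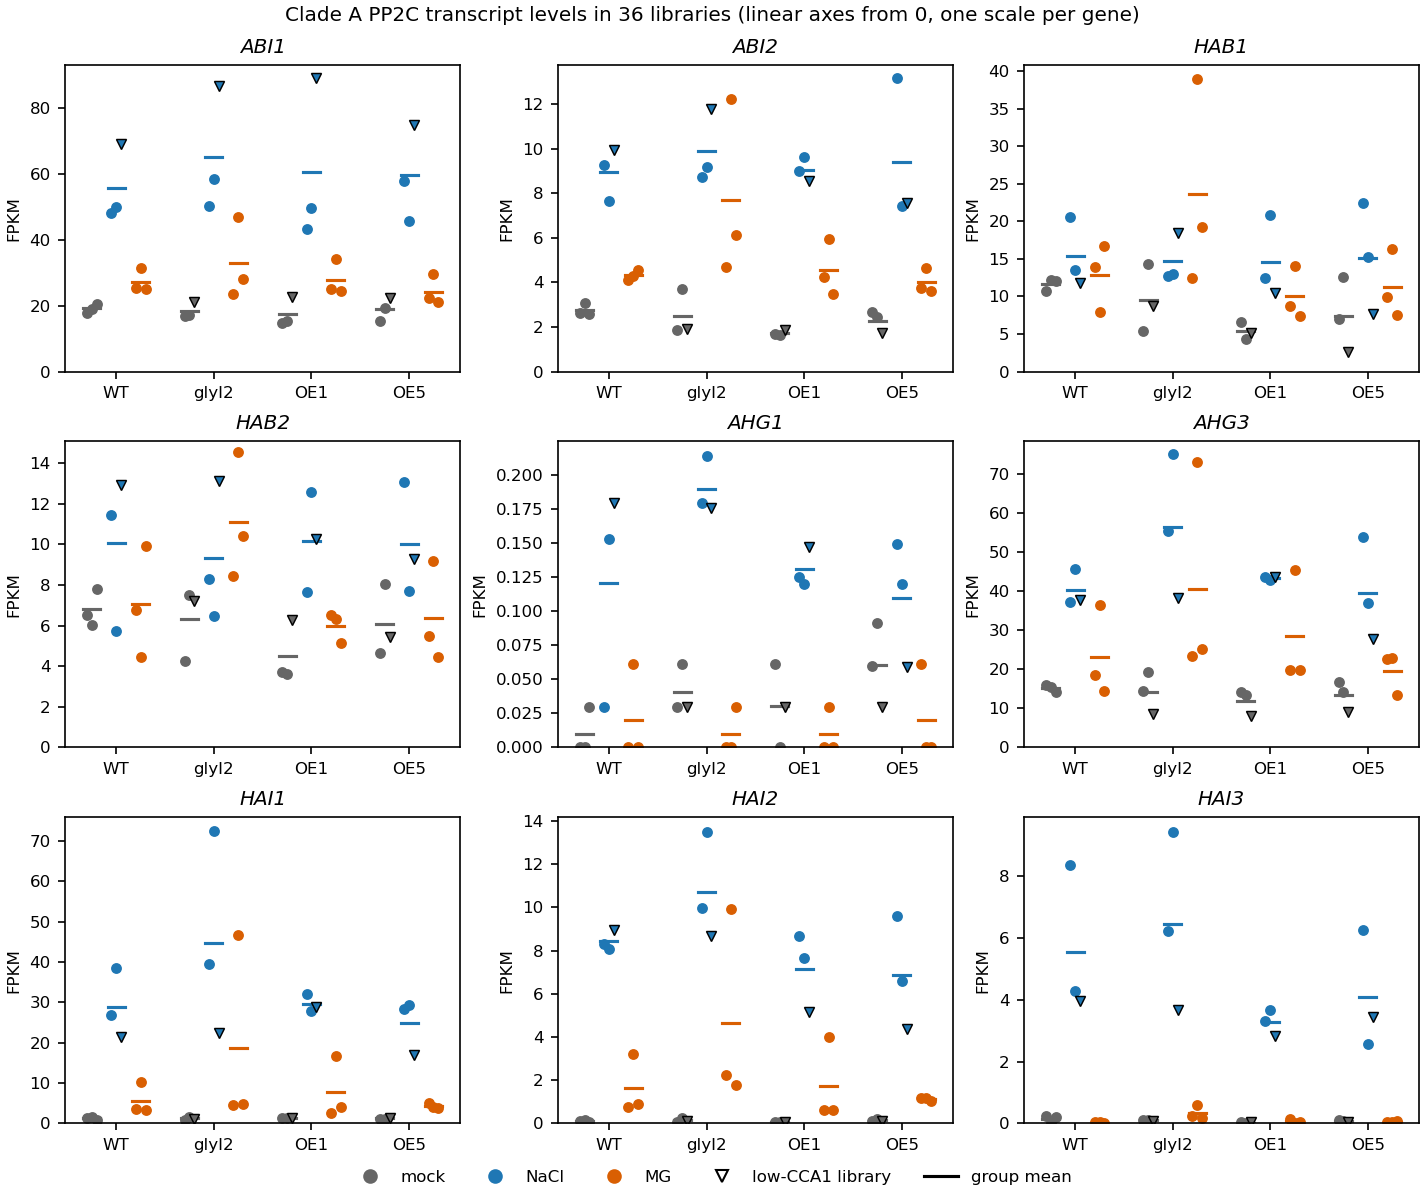
Deposited FPKM of the 9 genes (y axis, linear, from 0, a separate scale per gene) in each of 36 libraries, by genotype (x axis) and treatment (colour), with a bar at each group mean and triangles for the 7 libraries low in CCA1. HAI1, HAI2 and HAI3 sit near 0 in mock and stand high under NaCl, and a single MG library of WT, glyI2 and OE1 stands above its mates in HAI1 and HAI2.

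Under NaCl the 3 HAI genes rose in every genotype, by far more than any other member. HAI1 in WT was at 1.32, 1.54 and 0.84 FPKM in mock and at 26.8, 38.6 and 21.3 under NaCl. In glyI2 it went from 0.902, 1.61 and 1.11 to 39.6, 72.4 and 22.3 FPKM. The line OE1 had 1.23, 1.28 and 1.38 FPKM in mock and 32.1, 27.7 and 28.9 under NaCl, and OE5 had 1.19, 1.13 and 1.41 against 28.3, 29.4 and 17.0. Every NaCl library was thus far above every mock library, and the highest value was the second glyI2 library. The log2 fold change in WT was 4.51 ± 0.80 (SE, adjusted p = 0.000599, edgeR), and those of the other genotypes lay between 4.23 and 5.35.

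HAI2 and HAI3 started from almost nothing. HAI2 in WT was at 0.126, 0.154 and 0.05 FPKM in mock and at 8.29, 8.06 and 8.93 under NaCl. HAI3 in WT had 7, 0 and 6 reads in mock and 236, 118 and 112 under NaCl. In glyI2 HAI3 had 3, 3 and 2 reads against 175, 260 and 106. It had 1, 0 and 1 against 90, 103 and 81 reads in OE1, and 3, 2 and 1 against 177, 72 and 98 in OE5. No mock library of any genotype exceeded 7 reads, and no NaCl library had fewer than 72. The log2 fold changes in WT were 6.13 ± 0.85 for HAI2 (adjusted p = 2.74e-05) and 5.02 ± 0.63 for HAI3 (8.04e-06), and across the 4 genotypes they lay between 5.56 and 6.36 and between 5.02 and 6.68. For HAI3 the depth-scaled count ratio over all 12 NaCl and 12 mock libraries was 51.8, with an exact 95% interval of 35.9 to 77.6 that covers counting error only.

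ABI1 and ABI2 rose from higher starting levels by smaller factors. ABI1 in WT was at 17.8, 19.0 and 20.6 FPKM in mock and at 48.1, 49.99 and 69.1 under NaCl. ABI2 in WT was at 2.63, 3.07 and 2.57 FPKM in mock and at 9.27, 7.65 and 9.92 under NaCl. Neither gene's mock and NaCl libraries overlapped in any genotype. Overlap was looked at for the members only, here and below, so no share of all genes stands beside it. On the log2 scale ABI1 rose by 1.44 ± 0.24 in WT, 1.80 ± 0.24 in glyI2, 1.58 ± 0.24 in OE1 and 1.54 ± 0.24 in OE5 (highest adjusted p 0.000248, edgeR). ABI2 rose by 1.59 ± 0.29, 1.99 ± 0.29, 2.16 ± 0.29 and 1.92 ± 0.29 in the same order (highest adjusted p 0.000668). ABI1 overlaps the kinase gene MEK1 (AT4G26070) in the reference gene table, and the sources used here do not say whether reads were counted by strand. MEK1 itself was not called in any of the 4 NaCl comparisons (log2 fold change in WT 0.33, adjusted p = 0.612), though it was when averaged over genotypes (0.50, 0.00844).

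AHG3 was also higher in every NaCl library than in any mock library of the same genotype, but its spread was wider. In WT it was at 15.9, 15.6 and 14.1 FPKM in mock and at 37.3, 45.6 and 37.9 under NaCl. Its log2 fold changes were 1.34 ± 0.49 in WT (adjusted p = 0.0978), 2.05 ± 0.50 in glyI2 (0.00894), 1.59 ± 0.49 in OE1 (0.0549) and 1.44 ± 0.49 in OE5 (0.0842), so AHG3 was called in glyI2 alone in these fits, which is no test of a difference between genotypes. A fit with replicate number as a blocking term called AHG3 in WT (adjusted p = 0.0127), OE1 (0.00174) and OE5 (0.00715). The glyI2 call was lost without mock replicate 3 (0.0711) or NaCl replicate 2 (0.083), and when only those groups entered the fit (0.139). That same alternative called AHG3 in WT (0.0129) and OE1 (0.0363), and DESeq2 called it in OE1 (0.0264) and OE5 (0.048). Leaving out the 4 second MG libraries called it in WT, OE1 and OE5 (0.0358, 0.0164 and 0.028).

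The HAB genes stood at the other end. HAB1 in WT was at 10.7, 12.1 and 12.1 FPKM in mock and at 20.6, 13.6 and 11.8 under NaCl, so the groups overlapped. HAB1 was not called in any single genotype (log2 fold changes 0.31 to 1.19, with 95% intervals from -0.53 to 1.14 in WT and from 0.34 to 2.04 in OE1). The fit blocked by replicate number called it in OE1 (adjusted p = 0.0475). HAB2 in OE1 was at 3.70, 3.60 and 6.26 FPKM in mock and at 7.63, 12.6 and 10.3 under NaCl, groups that did not overlap. There HAB2 rose by 0.96 ± 0.22 on the log2 scale (adjusted p = 0.00839), a call lost without OE1 mock replicate 1 (0.0516) or OE1 NaCl replicate 2 (0.0556). Its values in WT, glyI2 and OE5 were 0.42, 0.53 and 0.64 and were not called, though DESeq2 called it in OE5 (adjusted p = 0.0419).

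In all, 5 of 8 tested members rose under NaCl in WT, 6 in glyI2, 6 in OE1 and 5 in OE5, and none fell. HAI3 passed the expression filter through its NaCl libraries, where it was high, and AHG1 was dropped by the filter. The 8 were thus not chosen apart from the NaCl values, and the place of HAI3 among them is no separate support. The shares of all tested genes called in these comparisons were 7.12%, 7.05%, 5.33% and 5.48%, and the shares called higher were 4.43%, 4.45%, 2.98% and 3.24%. The median log2 fold change of the 8 members in WT was 1.51, against 0.01 over all genes tested. ABI1, ABI2, HAI1, HAI2 and HAI3 were called in all 4 genotypes and under all 13 alternatives run for each value. Averaged over the 4 genotypes, with 12 libraries against 12, all 8 tested members rose, where 30.5% of all genes were called and 15.6% were called higher. That average was 0.77 for HAB1 (adjusted p = 0.00633), 0.64 for HAB2 (4.65e-05), 1.61 for AHG3 (8.22e-06), 4.59 for HAI1, 6.09 for HAI2 and 5.87 for HAI3 on the log2 scale.

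**Figure D2:**
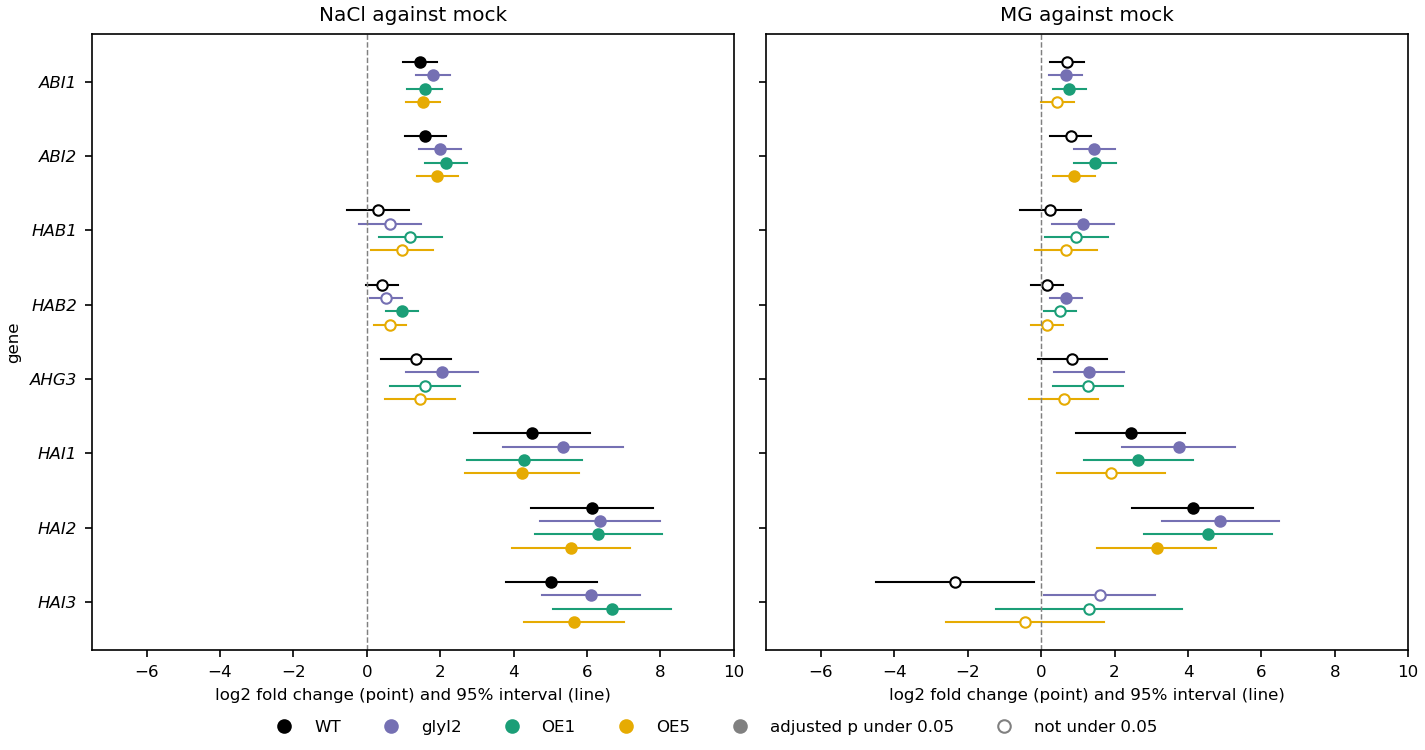
Log2 fold change (x axis) of the 8 tested genes (y axis) against mock for NaCl (left) and MG (right), with 95% intervals as lines, colours for the 4 genotypes and filled points for an adjusted p under 0.05. The HAI genes lie beyond 4 under NaCl in every genotype, and HAI3 moves from 5.02 under NaCl to -2.36, not called, under MG in WT.

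AHG1 was too sparse for the filter, and its reads are given as a description. The 12 NaCl libraries held 55 reads of it, the 12 mock libraries 14 and the 12 MG libraries 6. In WT it had 0, 0 and 1 reads in mock, 1, 5 and 6 under NaCl and 0, 2 and 0 under MG, groups that all touched or overlapped. The depth-scaled NaCl to mock ratio over the 4 genotypes was 3.62, with an exact 95% interval of 1.99 to 7.06 for counting error. Without the filter, when 26553 genes were tested, the averaged NaCl log2 fold change was 1.94 ± 0.46 (adjusted p = 0.00199, edgeR). It was not called against mock in any single genotype (lowest adjusted p 0.11), and it was lower under MG than under NaCl in glyI2 (-3.93, adjusted p = 0.004). Summed levels of 9 seed markers went the same way under NaCl and not under MG, from 0.15 to 1.49 FPKM in mock to 1.18 to 12.0 under NaCl and 0.397 to 2.82 under MG, and 1 of the 9 was at 0 in every library of each treatment. Their part in the AHG1 reads was not tested.

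The make-up of the family changed with NaCl. The summed FPKM of the 9 genes lay between 39.7 and 64.0 in mock (median 48.5) and between 152 and 258 under NaCl (median 175), and the groups did not overlap. HAI1, HAI2 and HAI3 together made up 1.89% to 3.59% of that sum in mock and 16.3% to 37.0% under NaCl, with medians of 3.01% and 23.9%. HAI1 was the highest of the 3 in all 36 libraries. The share of HAB1 had medians of 16.8% in mock and 7.79% under NaCl, and that of HAB2 11.8% and 5.62%. The first rank was held by ABI1 in 9 of the 12 NaCl libraries and by AHG3 in the other 3. These shares were described and not tested.

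**Figure D3:**
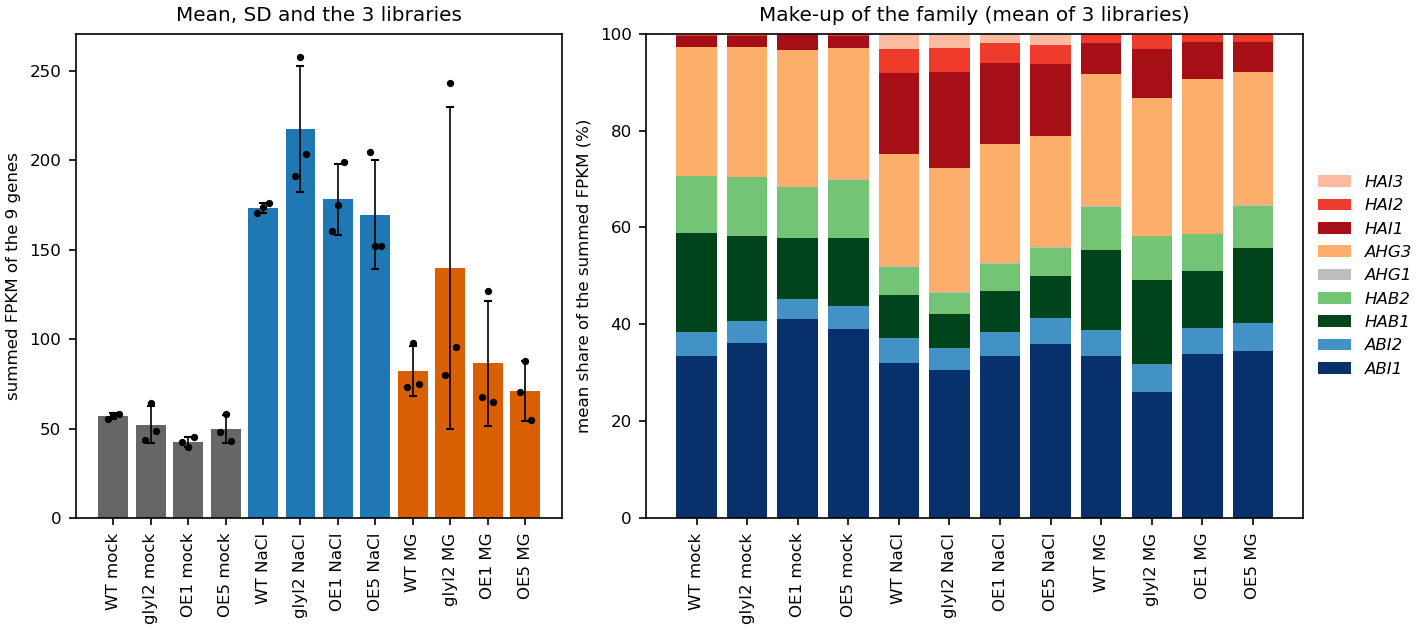
Left, the summed FPKM of the 9 genes by group (bars are means of 3 libraries, lines SD, points libraries); right, the mean share of each gene in that sum (y axis, percent). The 3 HAI genes (reds) take 3.59% or less in any mock library and 16.3% or more in any NaCl library.

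Under MG HAI2 was the single member that rose in all 4 genotypes, and HAI3 rose in none. In WT HAI2 was at 0.779, 3.23 and 0.904 FPKM under MG against 0.126, 0.154 and 0.05 in mock. In glyI2 the MG values were 2.22, 9.93 and 1.79 FPKM, in OE1 0.602, 3.98 and 0.614, and in OE5 1.16, 1.18 and 1.05. All were above every mock library, none of which exceeded 0.258 FPKM, and the second library was high in the first 3 genotypes. The log2 fold changes were 4.13 ± 0.84 in WT (adjusted p = 0.000785), 4.89 ± 0.82 in glyI2 (2.94e-05), 4.55 ± 0.89 in OE1 (0.000522) and 3.15 ± 0.83 in OE5 (0.0111). The OE5 call was lost without OE5 mock replicate 3 (0.0658) or without the 7 libraries low in CCA1, of which that is one (0.0988).

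HAI1 followed with wider spread. In WT it was at 3.44, 10.2 and 3.19 FPKM under MG, in glyI2 at 4.65, 46.7 and 4.82, in OE1 at 2.57, 16.6 and 3.96 and in OE5 at 5.05, 4.13 and 3.69. Every MG library exceeded every mock library (at most 1.61 FPKM), and again a single library led in WT, glyI2 and OE1. The log2 fold changes were 2.44 ± 0.76 in WT (adjusted p = 0.0332), 3.75 ± 0.78 in glyI2 (0.000496), 2.65 ± 0.76 in OE1 (0.0204) and 1.89 ± 0.75 in OE5 (0.143), so that HAI1 rose in the first 3. The OE5 value was called in the fit blocked by replicate number (0.033), without the 4 second MG libraries (0.00474) and when only the compared groups entered (0.00504). In WT the call was lost without mock replicate 1, 2 or 3 (0.0986, 0.0701 and 0.158) or MG replicate 2 (0.408), without which the log2 fold change was 1.43. In OE1 it was lost without mock replicate 1, 2 or 3 (0.0661, 0.0629 and 0.0953) or MG replicate 2 (0.367). The OE1 call was also lost without the 7 libraries low in CCA1 (0.114). Without the 4 second MG libraries, HAI1 was called neither in WT (0.065) nor in OE1 (0.0665). The glyI2 call held without each library in turn.

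HAI3, which rose with the other HAI genes under NaCl, was not called under MG. It had 1, 1 and 0 reads in WT, 7, 16 and 5 in glyI2, 4, 0 and 1 in OE1 and 1, 1 and 2 in OE5. Except in glyI2 these values overlapped those of mock. The log2 fold changes were -2.36 in WT (95% interval -4.51 to -0.21, adjusted p = 0.235), 1.59 in glyI2 (0.09 to 3.10, 0.123), 1.30 in OE1 (-1.22 to 3.83, 0.697) and -0.44 in OE5 (-2.59 to 1.71, 0.916). Averaged over genotypes, the value was 0.02 (adjusted p = 0.99). These values rest on 0 to 16 reads a library.

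ABI2 rose under MG in glyI2 by 1.45 ± 0.29, in OE1 by 1.46 ± 0.29 and in OE5 by 0.89 ± 0.29 on the log2 scale (adjusted p = 0.000273, 0.000645 and 0.0484, edgeR). In WT it was at 4.10, 4.31 and 4.54 FPKM, above the mock values of 2.57 to 3.07. Its log2 fold change of 0.81 in WT was not called (0.073). It was called when only the compared groups entered the fit (0.0496) and in the fit blocked by replicate number (0.025). The OE5 call was lost without OE5 mock replicate 2 or 3 (0.125 and 0.312) or OE5 MG replicate 1, 2 or 3 (0.11, 0.0907 and 0.119). RLE scaling (0.0644), omission of the filter (0.0562) and a fit of only the compared groups (0.111) each lost it too. So did omission of the 7 libraries low in CCA1 (0.234). ABI1 in WT was at 25.3, 31.3 and 25.1 FPKM under MG, above all 3 mock libraries. Its log2 fold change of 0.70 just missed the threshold (adjusted p = 0.0542). This value was called without WT MG replicate 3 (0.0263) and without the 7 libraries low in CCA1 (0.0357). DESeq2 (0.0403) and the fit blocked by replicate number (0.0334) called it too. ABI1 rose in glyI2 by 0.66 ± 0.23 (0.0328) and in OE1 by 0.77 ± 0.24 (0.0311). The glyI2 call was lost without mock replicate 2 or 3 (0.105 and 0.0839) or MG replicate 2 (0.274). In OE1 it was lost without mock replicate 1, 2 or 3 (0.105, 0.0757 and 0.0732) or MG replicate 2 or 3 (0.199 and 0.0561). Leaving out the 7 libraries low in CCA1 also lost the OE1 call (0.0551), and fitting only the compared groups lost that in glyI2 (0.0739).

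AHG3, HAB1 and HAB2 rose under MG in glyI2 and were not called in any other genotype. In OE1 the MG libraries of each of these genes lay above all mock libraries in CPM, while HAB2 overlapped in FPKM. How many of all genes separated in that way was not counted. The fit blocked by replicate number called AHG3 in OE1 (log2 fold change 1.29, adjusted p = 0.0104). AHG3 in glyI2 was at 14.5, 19.3 and 8.61 FPKM in mock and at 23.48, 73.1 and 25.2 under MG, without overlap. HAB1 in glyI2 was at 5.45, 14.4 and 8.79 FPKM in mock and at 12.5, 39.0 and 19.3 under MG, and these overlapped. HAB2 in glyI2 was at 4.24, 7.51 and 7.21 FPKM in mock and at 8.45, 14.5 and 10.4 under MG, without overlap. The log2 fold changes were 1.30 ± 0.49 for AHG3 (adjusted p = 0.0442), 1.15 ± 0.43 for HAB1 (0.0451) and 0.67 ± 0.22 for HAB2 (0.0222). The AHG3 call was lost without mock replicate 1 or 3 (0.0605 and 0.199) or MG replicate 2 (0.404), as was that of HAB1 (0.159, 0.136 and 0.318). Both calls were also lost without the filter (0.0543 and 0.0551) and when only the compared groups entered (0.0876 and 0.0712). That of AHG3 was lost without the 7 libraries low in CCA1 too (0.12). The HAB2 call was lost without mock replicate 1 (0.105) or MG replicate 2 (0.12). Whether these genes responded differently in glyI2 is a separate test, given with the genotypes.

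Of the 8 members 2 rose under MG in WT, 7 in glyI2, 4 in OE1 and 2 in OE5. The shares of all tested genes called were 10.7%, 29.2%, 9.79% and 8.82%, with 6.42%, 14.4%, 5.85% and 4.74% called higher. The share of all genes called was thus also largest in glyI2. The median log2 fold change of the 8 members in WT was 0.75, against 0 over all genes. Averaged over genotypes, 7 of 8 rose, where 35% of all genes were called and 17.8% called higher. Those averages were 0.65 for ABI1, 1.15 for ABI2, 0.76 for HAB1, 0.38 for HAB2, 1.01 for AHG3, 2.68 for HAI1 and 4.18 for HAI2 on the log2 scale. Without the 4 second MG libraries, an alternative chosen after the data were seen, 3 of 8 were called in glyI2, 2 in OE1, 1 in WT and 3 in OE5, and the averages of HAB1 (adjusted p = 0.0709) and AHG3 (0.0607) were not called. Shares of all genes called without those 4 libraries are not given here. Under MG the 5 root markers were all called lower in WT and in glyI2, and their part in these values was not tested.

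The 2 treatments were also compared directly, which uses no mock library. The NaCl and MG comparisons with mock share their mock libraries, so their values are only set side by side. HAI3 fell under MG relative to NaCl in all 4 genotypes, by 7.38 ± 0.81 in WT, 4.52 in glyI2, 5.37 in OE1 and 6.09 in OE5 on the log2 scale (highest adjusted p 3.38e-06, edgeR). The 2 reads in the 3 WT MG libraries stood against 466 under NaCl, a depth-scaled count ratio of 195 with an exact interval of 53.8 to 1618. The call held under all 13 alternatives in each genotype. ABI1 was lower under MG than under NaCl in all 4 genotypes, by log2 changes of -0.74 (adjusted p = 0.0358), -1.14 (0.000431), -0.80 (0.021) and -1.09 (0.00195).

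HAI2 was also lower under MG than under NaCl in WT (-2.0, adjusted p = 0.0377) and in OE5 (-2.40, 0.0146), and HAI1 (-2.34, 0.0334) and ABI2 (-1.03, 0.0148) in OE5. That made 3 members in WT, with 2 in glyI2 and OE1 each and 5 in OE5, where 11.7%, 31.3%, 12.6% and 10.3% of all genes were called and 5.6%, 16.3%, 5.68% and 5.14% called lower. Blocking by replicate number gave 5 calls in WT, ABI2 (0.0208) and HAI1 (0.00516) in addition. The ABI1 calls in glyI2 and OE5 held under all 13 alternatives, while the other calls outside HAI3 were lost without single libraries. ABI1 in WT was lost without NaCl replicate 2 or 3 (0.104 and 0.129) or MG replicate 1 or 3 (0.157 and 0.183). HAI2 in WT was lost without NaCl replicate 1, 2 or 3 (0.0629, 0.0817 and 0.0683) or MG replicate 1 or 3 (0.189 and 0.173). ABI1 in OE1 was lost without NaCl replicate 3 (0.251) or MG replicate 1 or 3 (0.101 and 0.094). The set low in CCA1 holds 4 NaCl libraries and no MG library, and ABI1 was above its mates in those 4. Without that set ABI1 was not called in WT (-0.70, 0.0607) or OE1 (-0.48, 0.194), nor HAI2 in WT (0.0631). Conversely, HAI1 and HAI2 were then called in glyI2 (0.0412 and 0.0489). In OE5, ABI2 was lost without NaCl replicate 1 (0.156) or MG replicate 1 or 3 (0.0543 and 0.0547), and HAI2 without NaCl replicate 1 (0.0654) or MG replicate 1, 2 or 3 (0.0532, 0.0566 and 0.0607). HAI1 in OE5 was lost without NaCl replicate 1 or 2 (0.0775 and 0.0824) or MG replicate 1, 2 or 3 (0.0781, 0.107 and 0.125). In the other direction, without MG replicate 2 HAI1 was called in WT (0.0124), and HAI1 and HAI2 were called in glyI2 (0.000657 and 0.00586) and OE1 (0.0184 and 0.00214). In glyI2 ABI2 was called as well (0.0134), and HAI1 and HAI2 were called without NaCl replicate 3 (0.0338 and 0.045).

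No member was called between a line and WT under mock or NaCl. In these 6 comparisons 0 of 8 members were called by edgeR and 0 by DESeq2. Shares of all genes at an unadjusted p under 0.05 are not given, here or below. At that cut-off 2 members were counted in OE1 mock, HAB1 and HAI3, and 0 in the other 5. HAI3 had only 1, 0 and 1 reads there against 7, 0 and 6 in WT mock, and it passed the filter through its NaCl libraries. Few genes of any kind were called, 0.0434%, 0.053% and 0.0386% for glyI2, OE1 and OE5 in mock and 0.0289%, 0.0241% and 0.0289% under NaCl. The intervals set what could have been missed. For ABI1 in glyI2 the 95% interval under mock was -0.50 to 0.41 on the log2 scale, while for HAI2 it was -1.79 to 2.36.

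Under MG 1 member was called. HAI3, at 7, 16 and 5 reads in glyI2 and 1, 1 and 0 in WT, was higher in glyI2 by 3.30 on the log2 scale (95% interval 1.37 to 5.24, adjusted p = 0.0223, edgeR), where 14.3% of all genes were called and 8.38% called higher. The groups did not overlap, but all values were low. When only the compared groups entered the fit, HAI3 did not pass the filter and was not tested. The call was lost without WT MG replicate 1 (0.0557), WT MG replicate 3 (0.0968), glyI2 MG replicate 2 (0.135), or the 4 second MG libraries (0.185). Without WT MG replicate 2, HAI2 was called higher in glyI2 too (0.0346). In OE1 and OE5 under MG 0 of 8 members were called by edgeR or DESeq2, 0 at an unadjusted p under 0.05, against 0.0386% and 0.0241% of all genes.

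No member was called when the difference in response between a line and WT was itself tested. For NaCl the 3 differences gave 0 of 8 called, 0 at an unadjusted p under 0.05 and 0 with DESeq2, and 0% of all genes were called. For MG, 0 of 8 were called by edgeR and by DESeq2, while 3.97%, 0.00482% and 0.00482% of all genes were called for glyI2, OE1 and OE5. At an unadjusted p under 0.05 HAI3 alone was counted, in glyI2 and OE1, from 0 to 16 reads a library in mock and under MG. The HAI3 difference in glyI2 was 3.95 (95% interval 1.33 to 6.57, adjusted p = 0.0991), and it was called without WT mock replicate 2 (0.0381). For the members that rose under MG in glyI2 and not in WT, the differences were 0.45 for AHG3 (-0.88 to 1.78), 0.90 for HAB1 (-0.29 to 2.08) and 0.51 for HAB2 (-0.10 to 1.12). Joint tests over the 4 genotypes called 0 of 8 members for NaCl (0% of all genes) and 0 of 8 for MG (3.2%), where HAI3 had an unadjusted p of 0.0359.

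Ranked by TMM-scaled CPM, the 12 groups fell into blocks by treatment. For ABI1, ABI2, AHG3, HAI1 and HAI2 the 4 NaCl groups ranked first, the 4 MG groups next and the 4 mock groups last, with glyI2 NaCl at the top each time. Neighbours in that order overlapped except at the step from MG to mock, and for ABI1 also at that from NaCl to MG. Such a step compares only the 2 groups beside it, and steps were not counted over all genes. Within a genotype AHG3 under MG overlapped mock in WT and OE5, and ABI1 under NaCl overlapped MG in WT. HAI3 had its only step without overlap between the NaCl groups, whose means ran from 3.97 to 8.83 CPM, and the rest, whose means ran from 0.03 to 0.38. For HAB1 and HAB2 glyI2 MG ranked first, at 54.6 and 23.8 CPM, OE1 mock last, and every pair of neighbours overlapped. No neighbours of the same treatment were free of overlap for any of these 8 genes.

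Libraries of one group were far from alike in some members, and they moved together. Replicate 2 of WT, glyI2 and OE1 under MG stood above the mean of its mates by 2.03, 3.17 and 2.35 log2 CPM in HAI1, by 2.296, 2.17 and 2.61 in HAI2 and by 1.57, 1.47 and 1.18 in AHG3. The same libraries stood above their mates by 3.01, 6.01 and 5.15 log2 CPM in RD29B, an ABA-responsive gene that is no member. HAB1 was lower than its mates in WT (-0.51) and higher in glyI2 and OE1 (1.21 and 0.79). In OE5 MG replicate 2 was not set apart, at -0.43 in HAI1, -0.27 in HAI2 and 0.03 in AHG3. The source of these differences between libraries was not tested.

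The 7 libraries low in CCA1 also moved in several members against their mates. AHG3 was lower in 7 of 7, by 0.0793 to 1.27 log2 CPM, and so were ABI2 and HAI2. ABI1 was higher in 6 of 7 (median 0.19) and HAB1 lower in 6 of 7 (median -0.72). HAI1, HAI2 and HAI3 were lower in each of the 4 NaCl libraries of that set. The clock gene TOC1 was higher in all 7, by 1.40 to 1.62. Without these libraries the 5 members called under NaCl in every genotype were still called, with ABI1 in WT at 1.39 (adjusted p = 0.000783) and HAI1 at 4.78 (0.00161). Their part in the spread of AHG3 was not tested.

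**Figure D4:**
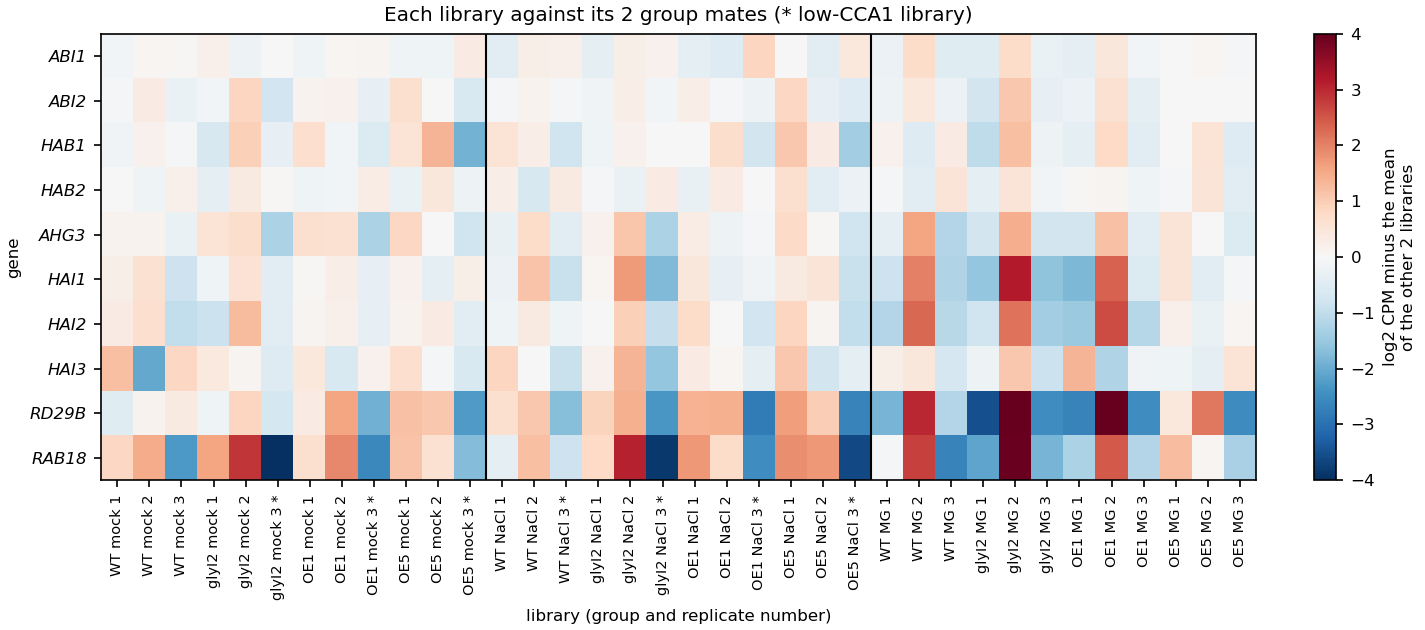
Log2 CPM of each library minus the mean of the other 2 libraries of its group (colour, stops at 4) for the 8 tested genes and for RD29B and RAB18 (y axis) over 36 libraries (x axis, asterisks mark those low in CCA1). Replicate 2 of WT, glyI2 and OE1 under MG is high in HAI1 (2.03, 3.17 and 2.35), HAI2 and RD29B.

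The rest of the pathway is given by lists, which were assembled with earlier results of these data known. Under NaCl in WT 7.12% of all genes were called. Of the PYR/PYL receptors, which bind ABA and block the phosphatases, 10 of 14 were tested, and under NaCl in WT 3 fell, 0 rose, and the median log2 fold change was -0.70. PYL6 fell from 32.9 ± 3.47 to 7.57 ± 3.18 FPKM (-2.17, adjusted p = 0.00147), PYR1 from 155 ± 23.7 to 66.7 ± 14.6 (-1.26, 0.0194) and PYL4 from 192 ± 5.68 to 102 ± 8.32 (-0.99, 0.0363). The 10 SnRK2 kinases are a family that includes those the phosphatases hold inactive. Of them 0 were called by edgeR and 2 had an unadjusted p under 0.05 (median 0.07). The share of all genes at that unadjusted cut-off is not given, so such counts cannot be set against the 7.12%. Of 7 tested ABF and ABI5 transcription factors 1 rose, ABF2, by 0.96. Among 12 tested genes of ABA synthesis and catabolism 2 rose, NCED3, the rate-limiting step of synthesis, by 3.11, and CYP707A1, which breaks ABA down, by 2.21.

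Of the 18 ABA-responsive target genes 15 rose under NaCl in WT and 0 fell, with a median of 2.85, where 4.43% of all genes were called higher. Examples were KIN1, a cold- and ABA-induced gene (5.97), P5CS1, an enzyme of proline synthesis (3.48), and the dehydrins LTI30 (2.04) and ERD10 (2.00). Known regulators of clade A PP2C proteins, 7 genes that are mostly ubiquitin ligase components, held 0 called genes by edgeR and 0 with an unadjusted p under 0.05 (median -0.01). Of 15 other PP2C genes 2 rose, EGR2 by 2.26 and EGR1 by 0.73, with a median of 0.22 against 1.51 in clade A.

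For MG in WT, where 10.7% of all genes were called and 6.42% called higher, the same lists are given beside those for NaCl, and the difference between them was not tested. Receptors held 0 called genes of 10, with 1 at an unadjusted p under 0.05, and PYL6 was at 31.4 ± 4.69 FPKM against 32.9 ± 3.47 in mock. Of the target genes 1 of 18 rose, LTI30 by 2.098, with a median of 0.97 over the list. CYP707A1 (2.17) and NCED3 (2.06, adjusted p = 0.0458) rose. Among the regulators 2 of 7 rose, RGLG1 from 7.33 ± 0.79 to 20.6 ± 1.00 FPKM (1.66, adjusted p = 1.31e-06) and RGLG5 by 1.10 (0.000146), ubiquitin ligases known to act on AHG3. Of the other PP2Cs 4 of 15 rose, AP2C2 (5.47), AP2C3 (2.68), EGR3 (1.92) and AP2C4 (0.83), the AP2C genes encoding phosphatases of MAP kinases. AP2C2 went from 0.378 ± 0.142 to 15.5 ± 4.398 FPKM under MG and stood at 0.879 ± 0.196 under NaCl. SNRK2.9 fell (-1.51), and 0 of 7 transcription factors were called (2 at an unadjusted p under 0.05). In glyI2 under MG, where 14.4% of all genes were called higher, 11 of 18 target genes rose and 1 fell, 3 of 10 receptors fell, and 3 of 7 regulators and 3 of 15 other PP2Cs rose.

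**Figure D5:**
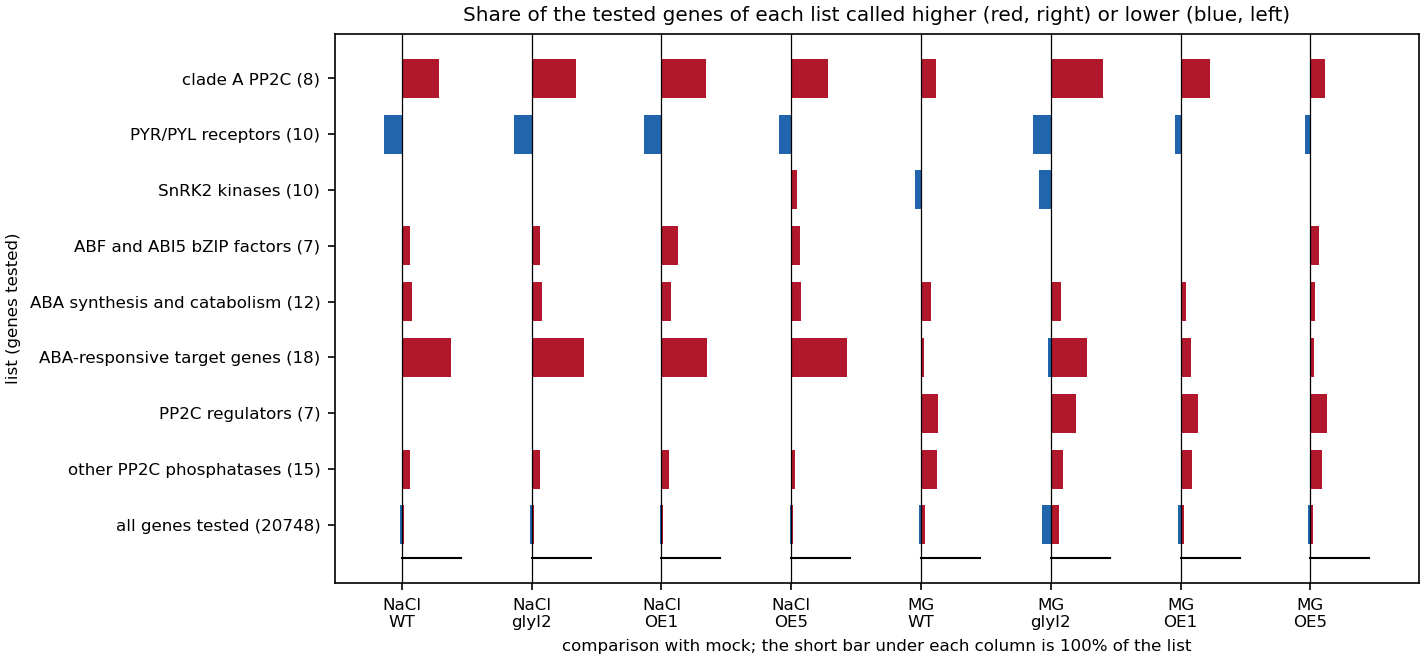
Share of the tested genes of each list (y axis, number tested in brackets) called higher (red, right) or lower (blue, left) in the 8 comparisons with mock (x axis), with a bar under each column for 100%. Clade A PP2Cs and ABA-responsive targets stand to the right under NaCl, where 5 of 8 and 15 of 18 were called in WT, and PYR/PYL receptors to the left.

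Likeness of pattern was measured as Pearson's r over the 12 group means of log2 CPM, among 16542 genes, as a description. All genes were measured in the same libraries and treatments, and how common such high values are was not counted. The genes most like HAI1 were AT1G67300 (0.994), FMO GS-OX4 (0.992) and RAB18 (0.992), and those most like HAI2 were AT1G67360 (0.996), FMO GS-OX4 (0.987) and INT2 (0.986). HAI3 was closest to AT1G61890 (0.993), LTI78, also called RD29A (0.983), and AT1G04360 (0.975). ABI2 and AHG3 had EGY3 and SAG29 among their 3 closest genes (0.996 and 0.991 for ABI2, 0.990 and 0.996 for AHG3). ABI1 was closest to AT1G63010 (0.994), LTP3 (0.993) and KCS2 (0.992). HAB1 was closest to AT4G30600 (0.990), HB-12 (0.975) and AT4G23050 (0.964), and HAB2 to HB-7 (0.964), AT1G73390 (0.962) and scpl10 (0.961). Between members, HAI1 and HAI2 were most alike of the HAI genes (0.988), with 0.860 for HAI1 and HAI3 and 0.804 for HAI2 and HAI3. HAB1 and HAI3 were the least alike of all pairs (0.501).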

How the data were processed

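For each of the 36 RNA libraries the authors deposited whole-number read counts and FPKM for every gene. The submitters' processing notes name HISAT2 2.0.4, HTSeq and the build TAIR10, and SICER and ChIPseeker besides. How strand and multiply matching reads were handled is not stated there, so values of overlapping or closely related genes are uncertain. FPKM gave levels; counts gave tests.

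Tests were edgeR 4.0.16 quasi-likelihood F tests (R 4.3.3, limma 3.58.1), with TMM factors of 0.7593 to 1.284, robust dispersions (biological coefficient of variation 28.33%) and edgeR's own expression filter, which kept 20748 genes. All 36 libraries entered a single fit of 12 group means. The calling threshold was an adjusted p of 0.05 (Benjamini-Hochberg, over the whole table). The SE is the log2 fold change divided by the root of F, and 95% intervals use a normal approximation, so no interval is given for the averaged MG value of HAI3, where F is near 0. Since separate cultures are not named in the labels, a p-value here reflects only library-to-library spread, possibly technical. The fit was tested on simulated data.

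The 31 comparisons include 2 joint tests. Alternatives comprised DESeq2 1.42.0, RLE scaling, omission of the filter, a fit of only the groups being compared, a block by replicate number, and omission of single libraries. Omission of 7 libraries low in CCA1, or of the second MG library of every genotype, was added after seeing the data. The members and lists were chosen with earlier results of these data known. Named are all members, up to 4 called genes per list with the lowest adjusted p in each WT comparison with mock, the 3 genes closest in pattern to each member (mean log2 CPM of at least 1, prior count 2), CCA1, GLYI2 and GLYII4. RD29B, TOC1 and MEK1 were named after their values were seen. Sequences were not used here, and no coordinates are given because the gene table (assembly TAIR10.1) and the files name different builds.

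Replicate numbers were checked as pairs through the correlation of deviations from group means. All 3 same-number correlations exceeded 0.1 in 6 of 21 comparisons: glyI2 MG and mock, OE5 NaCl and mock, OE5 MG and mock, glyI2 and WT under NaCl, OE5 and WT under NaCl, and WT MG and NaCl.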

Additional observations from a re-analysis of the deposited data

How the results depend on the processing

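Across the alternatives, 3898 values were counted as unchanged, 92 lost a call, 54 gained one and 26 changed sign, all of the last uncalled. Direction was not compared in joint tests. Nor was it compared between lines or in response differences for members uncalled in both fits. In those cases an unchanged value means only that its side of the threshold held. Counts for NaCl against mock stayed within 1.5 times. Counts of members called under an alternative are given without the share of all genes that it called. Whether the members or all genes changed cannot be told from those counts. The cause of the changes below was not tested. Low read numbers limit HAI3 outside NaCl and AHG1 under every treatment.

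For MG against mock, members called went from 2 to 4 in WT with the replicate block. Without the 4 second MG libraries they were 1 in WT, 3 in glyI2 (from 7), 2 in OE1 (from 4) and 3 in OE5 (from 2). Without the 7 libraries low in CCA1 they were 2 in OE1 and 0 in OE5. RLE scaling and omitting the filter each gave 1 in OE5, and the compared groups alone gave 4 in glyI2. Leaving out single libraries gave 1 to 3 in WT, 3 to 7 in glyI2, 2 to 4 in OE1 and 0 to 2 in OE5.

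For MG against NaCl the replicate block gave 5 in WT (from 3), 4 in glyI2 (from 2) and 5 in OE1 (from 2). Without the 7 libraries the counts were 1, 4 and 1, without the 4 MG libraries 5, 6 and 5. The compared groups alone gave 1 in WT and 1 in OE1, and DESeq2 gave 5 in WT. Single omissions gave 1 to 4, 2 to 5, 1 to 4 and, in OE5, 2 to 5. For glyI2 against WT under MG, 1 became 0 without the 4 MG libraries and with the compared groups alone, where HAI3 did not pass the filter, and 0 to 2 with single omissions; the response difference in glyI2 gave 0 to 1. The block changed a member's call in other comparisons whose numbers do not pair the libraries, and in 5 of 21 comparisons every library correlated best with its own number.

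Among the values whose direction was compared, signs changed as follows, on the log2 scale. HAB2 under MG against mock ranged with single omissions from -0.0317 to 0.298 in WT and from -0.0423 to 0.329 in OE5, and was -0.0423 in OE5 without the 4 MG libraries. HAI3 under MG against mock ranged from -0.21 to 1.87 in OE1 and from -0.89 to 0.0366 in OE5. HAB1 under MG against NaCl ranged from -0.29 to 0.14 in WT, -0.54 to 0.0335 in OE1 and -0.62 to 0.11 in OE5, with 0.0372 under the block and 0.0957 without the 4 MG libraries in WT. HAB2 under MG against NaCl in glyI2 ranged from -0.0337 to 0.26 and was -0.0553 without the 4 MG libraries. Averaged HAI3 under MG ranged from -0.35 to 0.18, with -0.00706 under the block, -0.0786 without the 7 libraries and -0.024 without the 4.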
